A study of Danio rerio with 6 samples.

Results

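The genes described here are the Hedgehog co-receptor genes cdon, boc, gas1a, gas1b and lrp2a, 5 of the 32520 genes of the deposited zebrafish count table. They were taken by gene name, each had a single row, and all 5 passed the filter on low counts that left 17701 genes for testing. RNA was sequenced from cells sorted from the dissected trunks of embryos labelled wildtype at 24 hours post fertilization. The embryos carried tgPAC(prdm1a:eGFP), whose green protein marks slow-twitch muscle and muscle pioneer cells, and tg(sox10:mRFP), whose red protein marks neural crest. There were 6 libraries, 2 in each of 3 groups. These were slow-twitch muscle without treatment (replicates 1 and 2), neural crest of embryos exposed to cyclopamine at 100 µM between 50% epiboly and the time of sorting (replicates 3 and 4), and neural crest without treatment (replicates 1 and 2). Cyclopamine blocks Smoothened, the membrane protein that carries the Hedgehog signal into the cell. No vehicle is stated for the untreated embryos, and the labels do not say whether replicates came from separate pools of embryos or which libraries were prepared together. The p-values therefore reflect the spread between these particular libraries, part or all of which may be technical.

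Hedgehog ligands are secreted proteins that bind Patched receptors and thereby release Smoothened from inhibition, after which Gli transcription factors switch on target genes. Cdon and Boc are single-pass membrane proteins of the immunoglobulin superfamily, and Gas1 proteins are anchored to the membrane by a lipid. All of them bind Hedgehog ligand and act together with Patched. In mouse, Cdon, Boc and Gas1 transcripts are known to be lowered by Hedgehog signalling, and Cdon and Boc also take part in adhesion between muscle precursor cells. Lrp2, or megalin, is a very large endocytic receptor of the low density lipoprotein receptor family that is best known from kidney epithelium and that binds Sonic hedgehog in mouse forebrain. The study's title names mutations of cdon and boc, crest migration and slow muscle, and the comparisons below ask in which of the sorted populations these co-receptor genes were transcribed and how their levels stood when Smoothened was blocked.

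Total counts ranged from 15355583 to 26441238 per library, and the most shallow library was untreated replicate 2. The sort was checked with sox10, at 1.90 and 4.22 CPM in slow muscle, 2616 and 4029 CPM in cyclopamine crest and 3293 and 3169 CPM in untreated crest. CPM are counts scaled to a common library size, here after TMM normalisation. The transcription factor gene prdm1a stood at 1054 and 1062 CPM in slow muscle, 103 and 203 CPM in cyclopamine crest and 145 and 132 CPM in untreated crest. The slow muscle replicates were less alike over all 8 slow muscle markers, prdm1a among them. These summed to 54874 and 26176 CPM in slow muscle, 111 and 212 CPM in cyclopamine crest and 198 and 206 CPM in untreated crest. Without smyhc1, the gene with the highest mean, the other 7 summed to 9511 and 4525 CPM in slow muscle. The summed level of 7 epidermal marker genes was 7037 and 9844 CPM in slow muscle, 1256 and 290 CPM in cyclopamine crest and 706 and 514 CPM in untreated crest, and that of 7 endothelial genes was 1348 and 1523 CPM in slow muscle, 102 and 173 CPM in cyclopamine crest and 186 and 184 CPM in untreated crest. Cyclopamine replicate 4 stood apart, with 13249 genes detected against 15281 to 17275 in the others. Its 6 notochord and floor plate markers summed to 701 CPM, against 25.2 CPM in cyclopamine replicate 3 and 20.1 and 32.9 CPM in untreated crest, while the list summed to 743 and 796 CPM in slow muscle. Without ntd5, the gene with the highest mean, the other 5 markers summed to 93.5 and 70.6 CPM in slow muscle, 16.03 and 602 CPM in cyclopamine crest and 14.1 and 20.6 CPM in untreated crest. In cyclopamine replicate 4 col8a1a stood at 415 CPM and the notochord gene tbxta at 173 CPM, and noto and tbxtb stood at 0. The 4 pigment cell markers summed to 0 and 0 CPM in slow muscle, 1124 and 263 CPM in cyclopamine crest and 1507 and 1244 CPM in untreated crest. The 7 presomitic mesoderm markers summed to 91.1 and 144 CPM in slow muscle, 85.8 and 37.5 CPM in cyclopamine crest and 25.99 and 16.7 CPM in untreated crest. Fitted changes of the co-receptor genes in cyclopamine crest are given below with and without replicate 4. In these bulk libraries a smaller number of expressing cells and less RNA per cell cannot be told apart.

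Summed over the 5 co-receptor genes, the level was 399 and 403 CPM in slow muscle, 364 and 448 CPM in cyclopamine crest and 206 and 215 CPM in untreated crest, and cdon made up the largest part of each sum by reads. cdon had 3750 and 4020 counts in slow muscle, 3702 and 5563 counts in cyclopamine crest and 1914 and 2368 counts in untreated crest. As levels these were 198 and 170 CPM in slow muscle, 168 and 261 CPM in cyclopamine crest and 101 and 140 CPM in untreated crest. Both slow muscle and both cyclopamine libraries lay above both untreated libraries, and the cyclopamine libraries enclosed the slow muscle ones.

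boc followed a different order. It stood at 94.3 and 112.5 CPM in slow muscle, 89.1 and 76.6 CPM in cyclopamine crest and 62.9 and 57.1 CPM in untreated crest. No library of one group overlapped those of another, so that slow muscle was the highest and untreated crest the lowest group. Of all tested genes 33.6% were higher without overlap in slow muscle than in untreated crest. For cyclopamine over untreated crest the share was 14.6%, and for slow muscle over cyclopamine crest 31.1%. The share of genes with the full order was not counted.

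**Figure D1:**
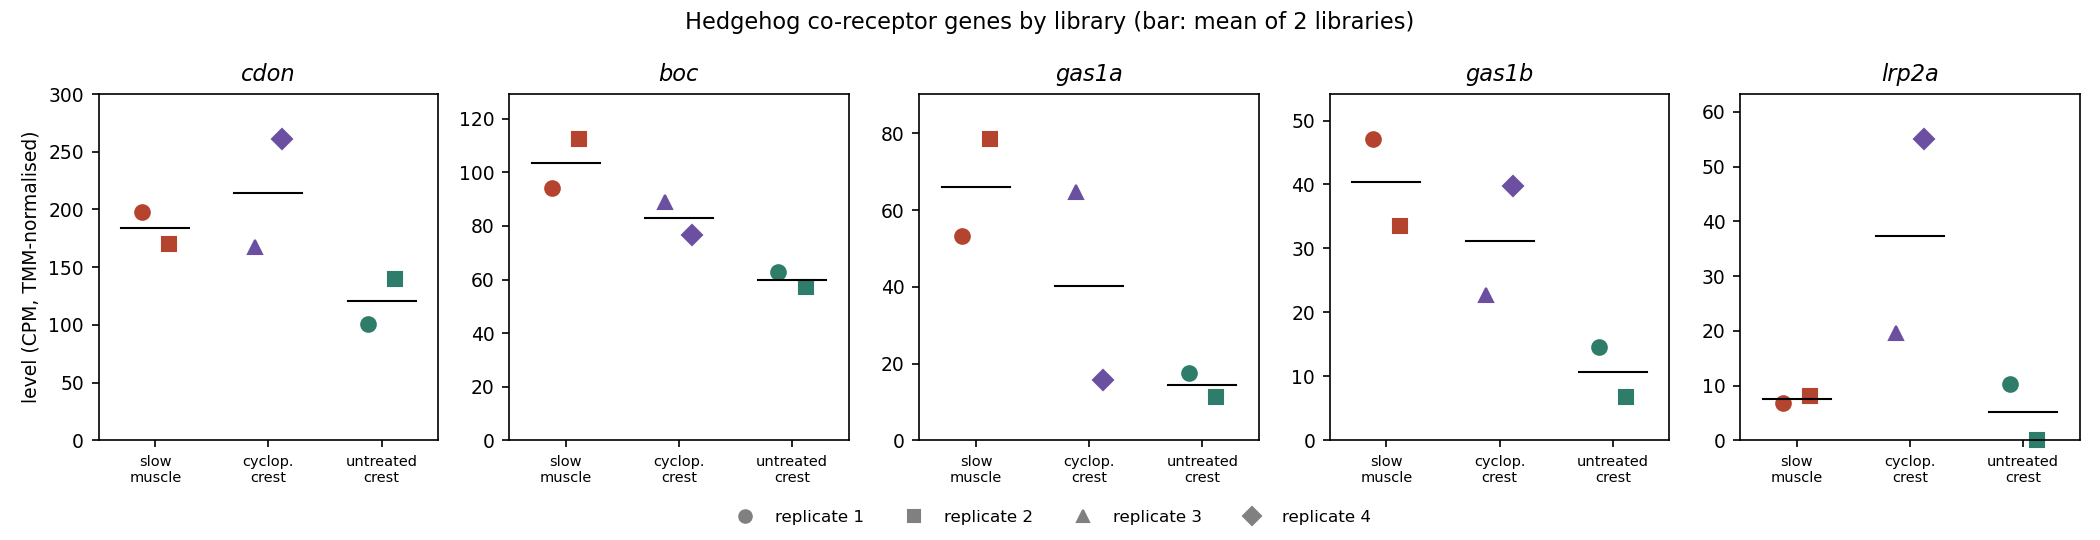
Level in CPM (linear axis from 0) of each co-receptor gene in the 6 libraries, with marker shapes for the replicate number and a black bar for the mean of 2 libraries. The untreated crest libraries are the lowest for cdon, boc and gas1b, and cyclopamine replicate 4 is the highest library for cdon (261 CPM) and lrp2a (55.1 CPM) but not for gas1a (15.8 CPM).

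gas1a and gas1b are zebrafish copies of Gas1. gas1a stood at 53.3 and 78.6 CPM in slow muscle, 64.7 and 15.8 CPM in cyclopamine crest and 17.6 and 11.4 CPM in untreated crest. Both slow muscle libraries exceeded both untreated ones, whereas the cyclopamine pair was split, with replicate 3 among the slow muscle values and replicate 4 among the untreated ones. gas1b stood at 47.1 and 33.5 CPM in slow muscle, 22.7 and 39.7 CPM in cyclopamine crest and 14.7 and 6.80 CPM in untreated crest. Here both cyclopamine libraries exceeded both untreated libraries, and replicate 4 lay among the slow muscle values.

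lrp2a had 130 and 193 counts in slow muscle, 433 and 1173 counts in cyclopamine crest, and 197 and 0 counts in untreated crest. The corresponding levels were 6.86 and 8.15 CPM in slow muscle, 19.6 and 55.1 CPM in cyclopamine crest and 10.4 and 0 CPM in untreated crest. The 0 in untreated replicate 2 allows up to 3 counts, or 0.177 CPM, if each count is taken as an independent molecule. Both cyclopamine libraries lay above the other 4, and the slow muscle libraries lay between the untreated ones. In the RefSeq annotation (assembly GRCz12tu) lrp2a overlaps rdh1 and a non-coding transcript, while the other 4 co-receptor genes overlap no annotated gene. rdh1 had 0 counts in all 6 libraries, and whether the counting used strand is not stated in the labels.

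In each library the number of genes per count value rose to a local peak, at 44 and 38 counts in slow muscle, 40 and 97 in cyclopamine crest and 33 and 39 in untreated crest. If that peak stands for a single starting molecule, cdon rested on between 57 and 106 molecules per library and boc on between 17 and 70. For boc the exact 95% Poisson interval in cyclopamine replicate 4 was 45.1 to 124 CPM. It overlapped those in untreated crest, 43.9 to 86.7 CPM and 37.3 to 85.1 CPM. It also overlapped those in slow muscle, 68.3 to 129 CPM and 87.6 to 142 CPM. gas1a rested on 3 molecules in cyclopamine replicate 4 and on 5 in untreated replicate 2, with exact 95% Poisson intervals of 2.82 to 39.9 CPM and 3.75 to 26.9 CPM. gas1b rested on 20 and 21 molecules in slow muscle, 13 and 9 in cyclopamine crest and 8 and 3 in untreated crest. Its intervals in untreated crest, 6.01 to 27.4 CPM and 1.43 to 20.2 CPM, overlapped those in cyclopamine crest, 12.5 to 40.3 CPM and 18.7 to 77.8 CPM. For lrp2a the numbers were 3 and 5 in slow muscle, 11 and 12 in cyclopamine crest and 6 and 0 in untreated crest. Under this unit the 0 of untreated replicate 2 allows up to 8.51 CPM by the upper end of its interval, which is above both slow muscle levels. The limit of 3 used above for counts, applied to this unit, gives 6.92 CPM, which is above slow muscle replicate 1 only. The lrp2a interval in cyclopamine replicate 4 was 28.2 to 95.5 CPM, above the 3.83 to 22.7 CPM of untreated replicate 1, while that of cyclopamine replicate 3, 9.95 to 35.7 CPM, overlapped it. These intervals cover counting error under that assumption only.

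Slow muscle was compared with untreated crest to ask how the co-receptor genes differ between a Hedgehog-dependent muscle type and the migrating crest beside it. For 4 of the 5 genes both slow muscle libraries were above both untreated libraries, a pattern that 33.6% of all tested genes shared. None of the 5 was called by edgeR's quasi-likelihood test over all genes, in which 2.55% of the tested genes were called. The fitted log2 fold change was 2.19 ± 0.74 for gas1a (SE; edgeR adjusted p = 0.194) and 1.91 ± 0.61 for gas1b (edgeR adjusted p = 0.172). Smaller fitted changes were found for boc, at 0.79 ± 0.31 (edgeR adjusted p = 0.243), and cdon, at 0.61 ± 0.35 (edgeR adjusted p = 0.396). For lrp2a the value was 0.53 ± 1.86 (edgeR adjusted p = 0.947), with a 95% interval from -4.04 to 5.10 that spans 0, and it was -0.47 without untreated replicate 2. The median fitted change of the 5 genes was 0.79, against 0.08 over all tested genes.

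The tools differed for the gas1 genes. DESeq2, which called 11.6% of the genes it tested higher in slow muscle, called gas1a (log2 fold change 2.27, DESeq2 adjusted p = 0.0309) and gas1b (DESeq2 adjusted p = 0.0381) among them, and it did not call boc (DESeq2 adjusted p = 0.0533) or cdon (0.323). In edgeR gas1a was also called when only the slow muscle and untreated libraries entered the fit (adjusted p = 0.0336). In that fit 2368 of 16682 tested genes were called. The fitted change of gas1a was 2.19 without cyclopamine replicate 3 and 2.19 without replicate 4. Those libraries are no part of this comparison, so the fitted change could hardly move and these values are no check of it. The 6 sclerotome markers, genes of the somite cells that form the axial skeleton, were also highest in slow muscle as a sum. They summed to 135 and 235 CPM in slow muscle, 48.1 and 43.7 CPM in cyclopamine crest and 30.7 and 20.6 CPM in untreated crest. Most of that sum was matn4, and pax9 had 9.55 and 18.9 CPM in slow muscle and 0 in every crest library. The marker twist1b overlapped, at 2.58 and 6.80 CPM in slow muscle and 6.48 and 3.79 CPM in untreated crest. The part of sclerotomal, epidermal or endothelial cells in the gas1 levels of the slow muscle sort was not tested.

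**Figure D2:**
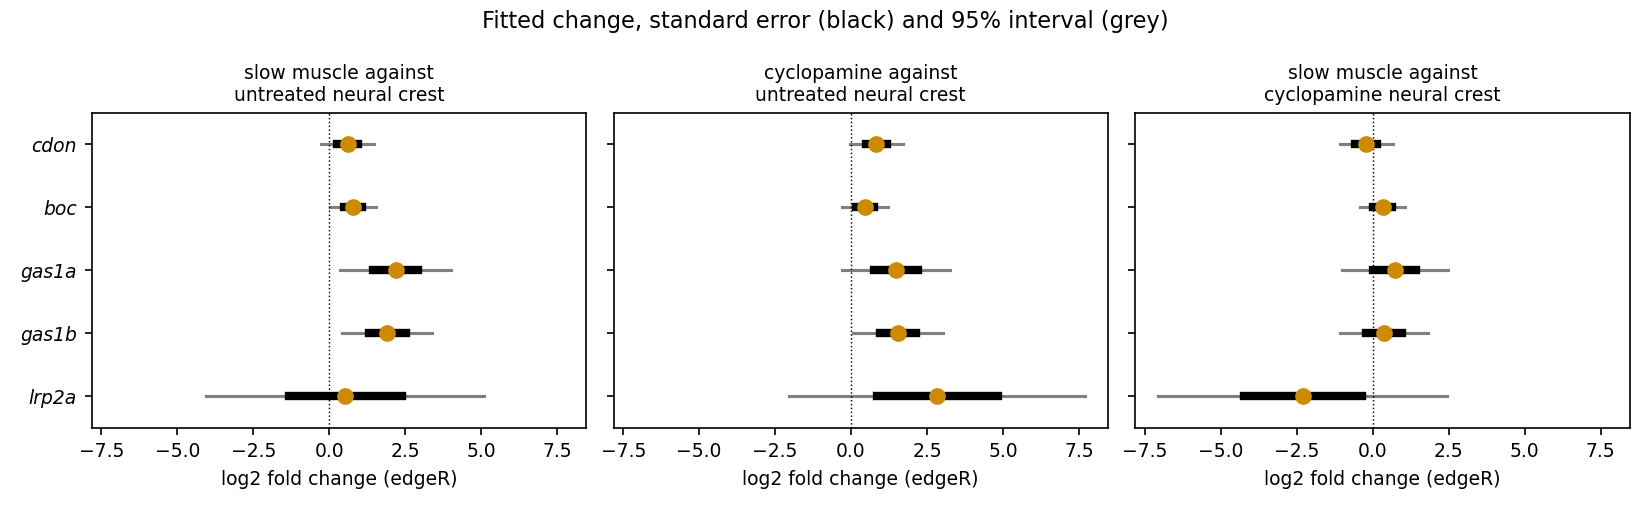
edgeR log2 fold change (x axis) of each co-receptor gene in 3 comparisons, with the standard error as a thick black line and the 95% interval as a thin grey line. The intervals of gas1a, gas1b and boc against untreated crest lie above 0 for slow muscle, and that of gas1b also for cyclopamine crest, all before adjustment for multiple testing, and those of lrp2a span 0 in all 3 comparisons.

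Cyclopamine-treated crest was compared with untreated crest to ask how the co-receptor genes stood in the crest sort with Smoothened blocked. The sorted populations also differed in the marker sums given above. The pigment cell sum was lower and the presomitic sum higher in both treated libraries, and the notochord and floor plate sum was high in replicate 4. Not every marker followed its sum. The pigment marker mitfa stood at 393 and 45.9 CPM in cyclopamine crest and 283 and 268 CPM in untreated crest. The presomitic marker her1 stood at 8.88 and 0 CPM in cyclopamine crest and 17.6 and 2.66 CPM in untreated crest. The part of these differences in the co-receptor levels was not tested. The fitted changes of all 5 genes were positive, with a median of 1.48 against 0 over all tested genes. For cdon, boc, gas1b and lrp2a both cyclopamine libraries lay above both untreated libraries, a pattern seen in 14.6% of all tested genes. None of the 5 was called, but edgeR called 0% of the tested genes in this comparison, with 767 genes (4.33%) at an unadjusted p under 0.05, while DESeq2 called 306 genes (1.87%). These differences were therefore not separated from the spread between replicates.

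The size of each difference depended on the cyclopamine library. For cdon the fitted log2 change was 0.83 ± 0.36 (SE; edgeR adjusted p = 0.835), and it was 0.48 without cyclopamine replicate 4 and 1.13 without replicate 3. For boc it was 0.46 ± 0.30 (edgeR adjusted p = 0.835), 0.57 without replicate 4 and 0.36 without replicate 3. gas1b stood at 1.54 ± 0.60 (edgeR adjusted p = 0.835), 1.08 without replicate 4 and 1.90 without replicate 3. gas1a had a fitted change of 1.48 ± 0.72 (edgeR adjusted p = 0.835) that rested on replicate 3, with 2.16 without replicate 4 and 0.14 without replicate 3. For lrp2a the fitted change was 2.84 ± 1.99 (edgeR adjusted p = 0.847), with 1.91 without replicate 4 and 3.42 without replicate 3. Its interval ran from -2.03 to 7.71, and without untreated replicate 2, the library at 0 counts, the value was 1.85.

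After adjustment over all genes DESeq2 gave a p of 0.441 for gas1b, 0.533 for cdon, 0.602 for gas1a, 0.754 for lrp2a and 0.78 for boc. On the log2 scale the 95% intervals of the edgeR fit were -0.04 to 1.71 for cdon, -0.28 to 1.21 for boc, -0.30 to 3.25 for gas1a and 0.07 to 3.02 for gas1b. Those of cdon, boc and gas1a span 0, while that of gas1b, which is not adjusted for the number of genes, lies above it. For cdon, gas1b and lrp2a the higher treated library was replicate 4, the one with the high notochord and floor plate sum, and the part of such cells in their levels was not tested.

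Of the 3 pairs of groups, slow muscle and cyclopamine crest had the smallest fitted difference for cdon, boc, gas1a and gas1b. Without cyclopamine replicate 3 this did not hold for gas1a, where it was 2.05 against 0.14 between cyclopamine and untreated crest, or for boc, where it was 0.42 against 0.36. The fitted log2 difference, slow muscle over cyclopamine crest, was -0.22 ± 0.35 for cdon (SE; edgeR adjusted p = 0.801), 0.32 ± 0.30 for boc (0.614), 0.71 ± 0.71 for gas1a (0.637) and 0.37 ± 0.59 for gas1b (0.801). For cdon the sign turned without cyclopamine replicate 4 (0.13). For gas1a the difference was 2.05 without replicate 3 and 0.030 without replicate 4, each against a single treated library. The gas1b value was 0.83 without replicate 4. lrp2a was lower in both slow muscle libraries than in both cyclopamine libraries, with a fitted difference of -2.31 ± 1.94 (edgeR adjusted p = 0.554) and of -1.38 without replicate 4. In this comparison edgeR called 2.18% of all tested genes, and 1 of the 5 co-receptor genes lay wholly above (boc) and 1 wholly below (lrp2a), against 31.1% and 21.8% of all tested genes. The cyclopamine libraries also serve the comparison with untreated crest, and tissue and treatment differ together between slow muscle and cyclopamine crest.

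The order of group means was thus slow muscle, cyclopamine crest, untreated crest for boc (103 ± 12.9, 82.8 ± 8.85 and 60.0 ± 4.06 CPM; mean ± SD, n = 2 each), gas1a (65.9 ± 17.9, 40.2 ± 34.6 and 14.5 ± 4.38 CPM) and gas1b (40.3 ± 9.62, 31.2 ± 12.02 and 10.7 ± 5.55 CPM). For cdon cyclopamine crest came first, at 214 ± 66.2 CPM, ahead of slow muscle at 184 ± 19.8 CPM and untreated crest at 120 ± 27.7 CPM. With replicate 3 as the single cyclopamine library, at 168 CPM, cdon would lie below both slow muscle libraries. For lrp2a it was cyclopamine crest at 37.4 ± 25.1 CPM, slow muscle at 7.50 ± 0.92 CPM and untreated crest at 5.19 ± 7.34 CPM. No neighbours in these orders passed the edgeR test over all genes. Among neighbours the libraries overlapped for cdon and both gas1 genes between slow muscle and cyclopamine crest, for gas1a between cyclopamine and untreated crest, and for lrp2a between slow muscle and untreated crest.

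Ratios of counts within a library do not depend on library scaling. The ratio of cdon to boc reads, not corrected for gene length, was 2.10 and 1.51 in slow muscle, 1.88 and 3.41 in cyclopamine crest and 1.60 and 2.45 in untreated crest, so the groups overlapped. The ratio of gas1a to gas1b reads was 1.13 and 2.34 in slow muscle, 2.84 and 0.397 in cyclopamine crest and 1.20 and 1.67 in untreated crest. The cyclopamine libraries lay at both ends of that range, and the excess of gas1a over gas1b reads seen in the other 5 libraries was turned round in cyclopamine replicate 4. Under the molecule unit above, that library held 3 of gas1a and 9 of gas1b, with overlapping intervals (2.82 to 39.9 CPM and 18.7 to 77.8 CPM). Untreated replicate 2 held 5 and 3, so these ratios rest on few molecules.

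gli1, a Gli transcription factor gene and direct target of the pathway, stood the other way from the co-receptor genes in crest. It had 128 and 120 CPM in slow muscle, 16.8 and 27.6 CPM in cyclopamine crest and 43.6 and 46.9 CPM in untreated crest. The log2 fold change of gli1 was -1.03 ± 0.37 in cyclopamine against untreated crest (SE; edgeR adjusted p = 0.835), and 1.46 ± 0.37 in slow muscle against untreated crest (edgeR adjusted p = 0.113). The ratio of cdon to gli1 reads was 1.55 and 1.41 in slow muscle, 9.98 and 9.48 in cyclopamine crest and 2.31 and 2.99 in untreated crest. The ratio of boc to gli1 reads was 0.737 and 0.934 in slow muscle, 5.30 and 2.78 in cyclopamine crest and 1.44 and 1.22 in untreated crest. Both ratios separated all 3 groups without overlap, and the treated replicates lay closer to each other in the cdon ratio than in the boc ratio. The level of gli1 alone also separated the 3 groups, whereas cdon alone overlapped between slow muscle and cyclopamine crest.

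**Figure D3:**
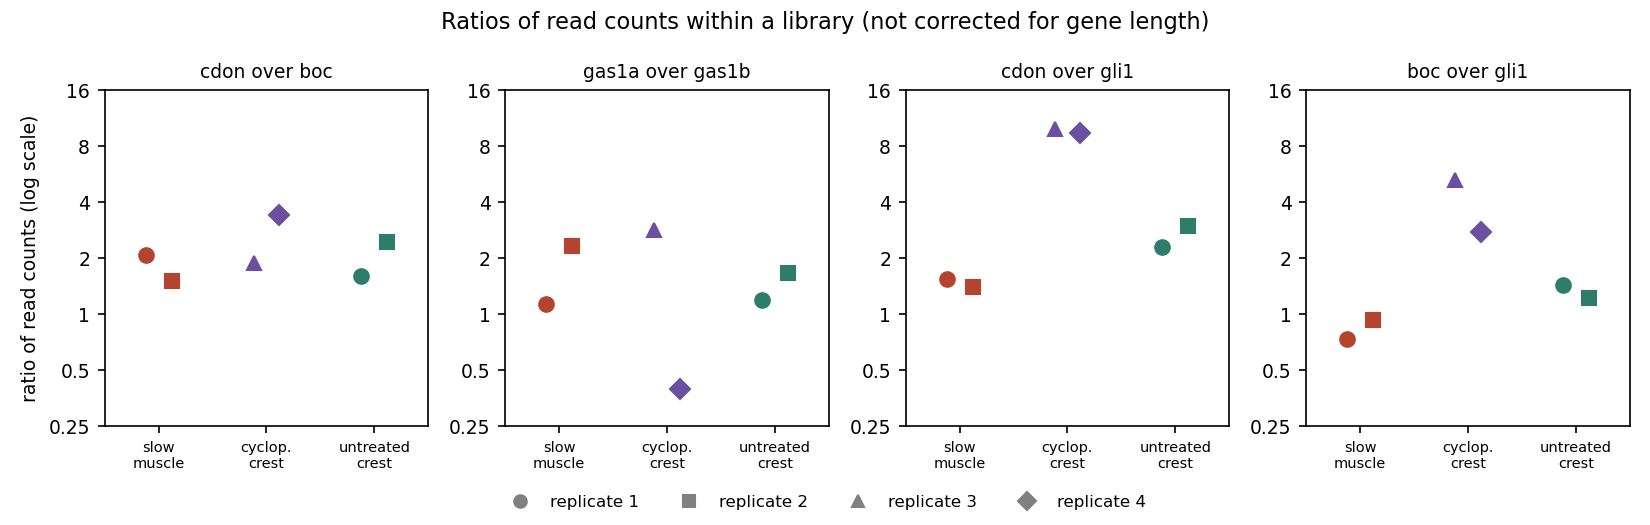
Ratios of read counts within each of the 6 libraries on a log scale, with marker shapes for the replicate number. The cdon to gli1 ratio is 9.98 and 9.48 in cyclopamine crest against 2.31 and 2.99 in untreated crest, while the cdon to boc ratio overlaps between the groups.

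Among 18 other tested Hedgehog pathway genes, edgeR called none in slow muscle or in cyclopamine crest against untreated crest, where it called 2.55% and 0% of all tested genes. The median fitted log2 change of the 18 was 1.26 in slow muscle and 0.31 in cyclopamine crest, against 0.08 and 0 over all tested genes. In slow muscle against cyclopamine crest edgeR called 1 of the 18, gli1 (log2 fold change 2.49 ± 0.39, edgeR adjusted p = 0.0438). Of all tested genes edgeR called 2.18% in that comparison. With only the groups compared it called 0 genes there, so the call depends on the untreated libraries in the fit. DESeq2 called 2 of the 18 higher there, gli1 and hhip, and 1698 of 15985 genes tested. DESeq2 called 4 of the 18 higher in slow muscle than in untreated crest, where it called 11.6% of all genes it tested higher. In cyclopamine against untreated crest it called 2 of the 18 higher and 1 lower, where it called 0.937% of all genes it tested in each direction.

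The 5 ligand genes summed to 1.63 and 10.98 CPM in slow muscle, 6.75 and 90.6 CPM in cyclopamine crest and 3.16 and 0.177 CPM in untreated crest. Of these, shha, which encodes Sonic hedgehog a, stood at 1.63 and 7.14 CPM in slow muscle, 6.39 and 79.0 CPM in cyclopamine crest and 3.16 and 0.177 CPM in untreated crest. The single high value was in the library whose notochord and floor plate markers were also high. Among the genes for ligand release, disp1, which encodes the exporter of lipid-modified ligand, stood at 68.0 and 56.9 CPM in slow muscle, 31.2 and 69.9 CPM in cyclopamine crest and 30.4 and 21.8 CPM in untreated crest. scube1, whose secreted product helps to carry ligand away, had 19.4 and 21.5 CPM in slow muscle, 13.3 and 25.6 CPM in cyclopamine crest and 1.69 and 3.14 CPM in untreated crest. Its log2 fold change in cyclopamine against untreated crest was 3.01 ± 0.78, called by DESeq2 (adjusted p = 0.0159) and not by edgeR (adjusted p = 0.835). Both treated libraries of scube1 lay above both untreated ones, as for gas1b.

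At the membrane, hhip, which encodes a ligand-binding antagonist and is itself a target, stood at 163 and 130 CPM in slow muscle, 5.71 and 0.705 CPM in cyclopamine crest and 26.2 and 27.2 CPM in untreated crest. Its log2 fold change in cyclopamine crest was -3.05 ± 0.91, called by DESeq2 (adjusted p = 0.0369) and not by edgeR (adjusted p = 0.835). ptch1, which encodes a Patched receptor, had levels of 57.4 and 77.3 CPM in slow muscle, 35.0 and 55.5 CPM in cyclopamine crest and 51.3 and 53.1 CPM in untreated crest, so that treated and untreated crest overlapped. smo, which encodes Smoothened, stood at 75.0 and 127 CPM in slow muscle, 145 and 145 CPM in cyclopamine crest and 131 and 129 CPM in untreated crest. The Gli factor gene gli2a stood at 193 and 199 CPM in slow muscle, 265 and 493 CPM in cyclopamine crest and 149 and 118 CPM in untreated crest, and as for cdon cyclopamine replicate 4 was its highest library. gli2b stood at 59.9 and 61.6 CPM in slow muscle, 29.4 and 20.8 CPM in cyclopamine crest and 7.22 and 12.48 CPM in untreated crest, the group order seen for boc.

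**Figure D4:**
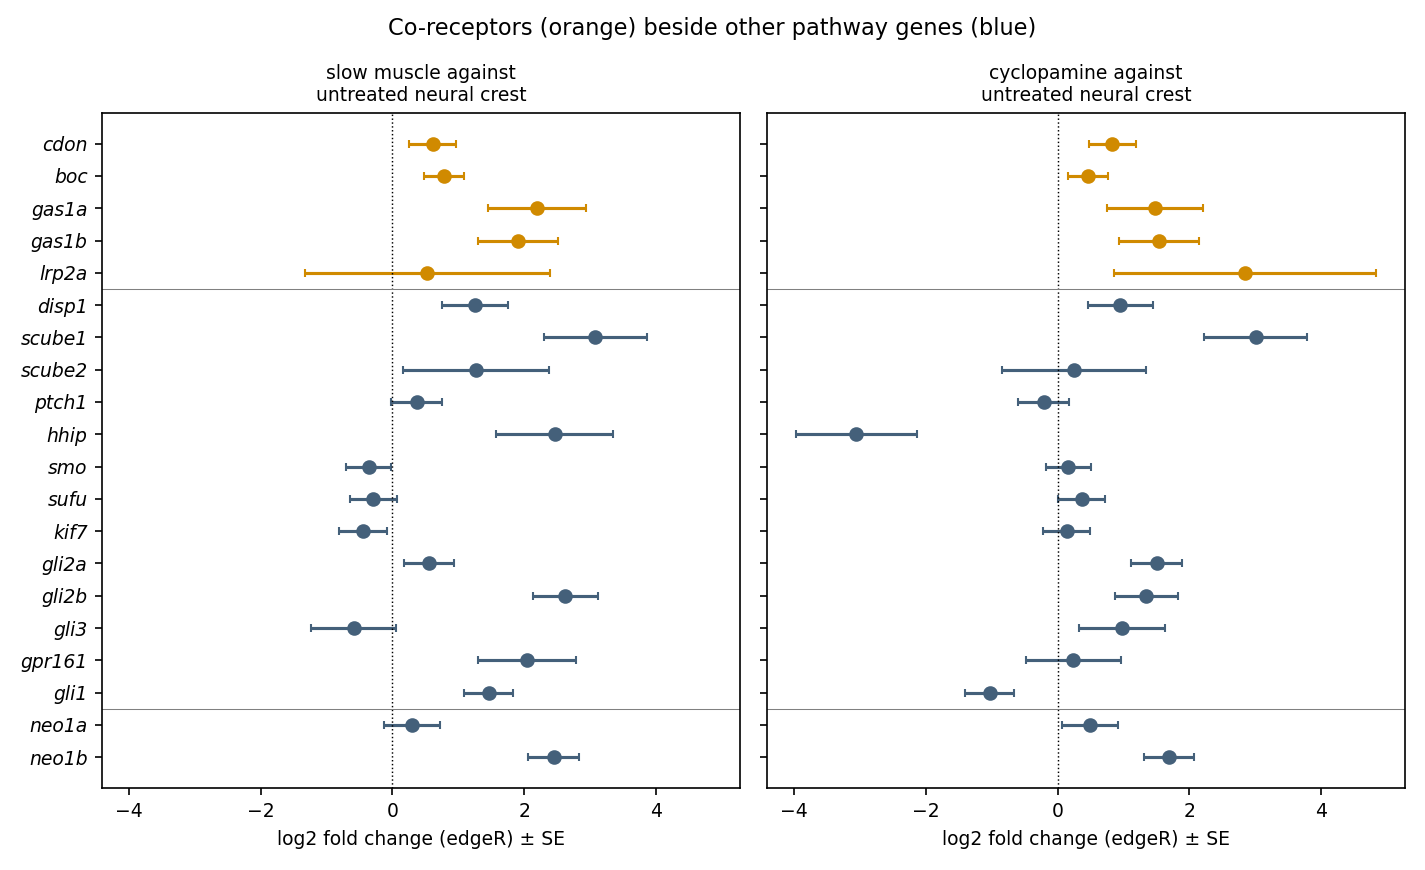
edgeR log2 fold change with its standard error (bars) for the co-receptor genes in orange and other pathway genes and the neogenin genes in blue, for slow muscle and for cyclopamine crest, each against untreated crest. Against the same untreated libraries gli1 and hhip are positive in slow muscle and negative in cyclopamine crest, while the fitted values of cdon, boc, gas1a, gas1b and lrp2a are positive in both.

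The next list held receptors, cadherins and other proteins that Cdon and Boc are known to bind or act with in mammals. Of its 17 tested genes edgeR called 2 higher and 1 lower in slow muscle against untreated crest, where it called 1.67% of all tested genes higher and 0.876% lower. DESeq2 called 3 of the 17 higher and 2 lower, against 11.6% and 6.04% of all genes it tested. neo1b, which encodes a neogenin, a receptor of the same immunoglobulin superfamily, stood at 164 and 151 CPM in slow muscle, 72.4 and 114 CPM in cyclopamine crest and 23.9 and 34.0 CPM in untreated crest. Its fitted log2 difference between slow muscle and untreated crest was 2.45 ± 0.39, which passed the test (edgeR adjusted p = 0.0401). In cyclopamine against untreated crest the fitted change of neo1b was 1.69 ± 0.38 (DESeq2 adjusted p = 0.0189, edgeR adjusted p = 0.79). neo1a, its paralogue, stood at 167 and 144 CPM in slow muscle, 112 and 246 CPM in cyclopamine crest and 136 and 118 CPM in untreated crest, with overlap between treated and untreated crest. The ratio of neo1a to neo1b reads was 1.02 and 0.953 in slow muscle, 1.55 and 2.15 in cyclopamine crest and 5.70 and 3.48 in untreated crest, without overlap between the groups.

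cdh2, which encodes N-cadherin, was the other gene called higher in slow muscle (log2 fold change 3.06 ± 0.33, edgeR adjusted p = 0.0177). It stood at 687 and 560 CPM in slow muscle, 227 and 215 CPM in cyclopamine crest and 64.3 and 85.7 CPM in untreated crest. In cyclopamine against untreated crest its fitted change was 1.56 ± 0.31 (DESeq2 adjusted p = 0.000229, edgeR adjusted p = 0.751). cdh15, which encodes the muscle cadherin M-cadherin, stood at 333 and 298 CPM in slow muscle, 60.3 and 0.658 CPM in cyclopamine crest and 7.91 and 15.1 CPM in untreated crest. DESeq2 called cdh15 higher in slow muscle than in untreated crest (adjusted p = 0.00349), and edgeR did not (adjusted p = 0.222). Fitted changes in cyclopamine against untreated crest were also computed without each treated library for 6 of these genes, a choice made after the data were seen. Without replicate 4 they were -1.43 for gli1, -2.22 for hhip, 2.46 for scube1, 0.99 for gli2a, 1.32 for neo1b and 1.60 for cdh2. Without replicate 3 they were -0.70 for gli1, -5.22 for hhip, 3.41 for scube1, 1.90 for gli2a, 1.99 for neo1b and 1.53 for cdh2. Each of these fits rests on a single treated library, which without replicate 3 is the one with the high notochord and floor plate sum. The gene called lower in slow muscle was spag9b, which encodes a scaffold protein of kinase signalling. It stood at 31.3 and 48.8 CPM in slow muscle, 322 and 250 CPM in cyclopamine crest and 336 and 409 CPM in untreated crest (log2 fold change -3.22, edgeR adjusted p = 0.0209). spag9b was also lower in slow muscle than in cyclopamine crest (edgeR adjusted p = 0.0324), the single edgeR call of the list there. With only the groups compared edgeR called 0 genes there. Of all tested genes edgeR called 2.18% in that comparison.

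Gas1 is related in structure to the co-receptors of the Ret receptor tyrosine kinase, and edgeR called none of 7 tested genes of that list in the 3 comparisons, in which it called 2.55%, 0% and 2.18% of all tested genes. DESeq2 called 2 of the 7 lower in slow muscle than in untreated crest, among them gfra1a (DESeq2 adjusted p = 0.00327), where it called 6.04% of all genes it tested lower. ret stood at 13.9 and 19.1 CPM in slow muscle, 19.7 and 94.1 CPM in cyclopamine crest and 47.0 and 31.2 CPM in untreated crest. The Ret co-receptor gene gfra1a stood at 6.54 and 11.7 CPM in slow muscle, 54.1 and 35.9 CPM in cyclopamine crest and 48.2 and 37.4 CPM in untreated crest, so that both slow muscle libraries were the lowest, whereas slow muscle had the highest mean of both gas1 genes. None of 5 tested glypican genes, which encode proteoglycans of the cell surface, was called by edgeR either. DESeq2 called 1 higher and 1 lower in slow muscle than in untreated crest, against 11.6% and 6.04% of all genes it tested. Relative to cyclopamine crest it called 3 higher and 1 lower in slow muscle, against 1698 and 1038 of 15985 genes tested. gpc4 stood at 257 and 198 CPM in slow muscle, 88.7 and 98.6 CPM in cyclopamine crest and 168 and 127 CPM in untreated crest.

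Of 11 tested genes related to lrp2a by family or by trafficking, edgeR called 1 higher in slow muscle against untreated crest (1.67% of all tested genes), and DESeq2 called 3 (11.6% of all genes it tested), namely dab2 and the low density lipoprotein receptor family genes lrp4 (DESeq2 adjusted p = 0.0280) and lrp8 (DESeq2 adjusted p = 0.0254). The gene called by edgeR was dab2, which encodes a clathrin adaptor, at 401 and 436 CPM in slow muscle, 13.0 and 23.9 CPM in cyclopamine crest and 65.1 and 54.6 CPM in untreated crest (log2 fold change 2.81, edgeR adjusted p = 0.0323). dab2 was also the single gene of the list called higher against cyclopamine crest (edgeR adjusted p = 0.0184). In that comparison edgeR called 244 of all 17701 tested genes higher, and 0 genes with only the groups compared. cubn, which encodes the kidney partner of megalin, stood at 0 and 1.14 CPM in slow muscle, 0 and 8.88 CPM in cyclopamine crest and 0 and 1.01 CPM in untreated crest. The paralogue lrp2b was detected in a single library, slow muscle replicate 2, with 2.11 CPM. The 6 pronephric markers, for the embryonic kidney in which lrp2a is known to be expressed, summed to 180 and 324 CPM in slow muscle, 29.8 and 30.4 CPM in cyclopamine crest and 21.3 and 22.8 CPM in untreated crest. The sum was highest in slow muscle, whereas lrp2a was highest in cyclopamine crest, and the part of pronephric cells in the lrp2a level was not tested. The 7 neural tube markers summed to 189 and 103 CPM in slow muscle, 289 and 300 CPM in cyclopamine crest and 225 and 207 CPM in untreated crest, so that both cyclopamine libraries were the highest. Without elavl3 the other 6 summed to 149 and 54.5 CPM in slow muscle, 120 and 79.8 CPM in cyclopamine crest and 83.2 and 70.7 CPM in untreated crest, with overlap between the groups. The part of neural tube cells in the lrp2a level was not tested either.

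The likeness of expression patterns was measured as the root mean square difference between log2(CPM + 1) values of a pair of genes over the 6 libraries, each centred on its own mean, among 9071 candidate genes. The nearest genes to cdon were wapla (0.11), cnot10 (0.12) and cep290 (0.13). Nearest to boc were svild (0.08), sec23a (0.10) and mob4 (0.11). A gene that varies little over the libraries lies near many others by this measure, and the libraries share depth and group. cdon and boc lay 0.39 apart, with 523 candidates closer to cdon than boc was. gas1a had more distant neighbours, cxadr (0.34), tram2 (0.34) and fbxw5 (0.35), as had gas1b, with pdcd4b (0.26), lgr4 (0.26) and tenm3 (0.27). gas1a and gas1b lay 0.89 apart, and 1151 candidates were closer to gas1a than its paralogue was. The nearest genes to lrp2a were slit1b (0.40), fgfr1b (0.56) and pak1 (0.73), and of the other co-receptor genes gas1b was nearest to it (1.28, with 112 candidates closer).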

How the data were processed

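The authors deposited whole-number read counts per Ensembl gene, 1 column per library per the file headers. The submitters' processing notes list STAR, featureCounts, Subread and DESeq2. Build, strand setting and treatment of multiply mapping reads were not given in the sources used. Rearing was at 28 °C, and the stranded libraries were read as pairs of 150 bp, per the labels. The untreated crest titles also carry the word slow-twitch, so grouping used the source field. A deposited log2 table was not used.

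Counts were tested in R 4.3.3 with edgeR 4.0.16 (quasi-likelihood, TMM, filterByExpr with minimum count 10 and minimum total 15) in 1 fit of 3 groups without covariates, with two-sided p-values adjusted by Benjamini-Hochberg over 17701 genes at a threshold of 0.05. Standard errors and intervals derive from the edgeR statistic. DESeq2 1.42.0 was an alternative. The test was checked on simulated data. A pass was required only at a dispersion (spread between replicates) of 0.05, below the common dispersion of 1.13 in these data.

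The co-receptor genes, 20 gene lists (142 entries, 3 matched through RefSeq symbols or synonyms, 2 unmatched) and tests were chosen with earlier results of these data known. Named genes are the co-receptor genes, called members of the lists or otherwise their 2 most abundant, gli1, ptch1, smo, hhip, the sort markers, and the 3 nearest genes per co-receptor gene. A gene that this rule takes is not reported here, and ihhb, scube2 and gpc5a are left out for brevity. scube1, gli2b, neo1a, cdh15, cubn, lrp2b, lrp4, lrp8 and single markers were chosen after their values were seen.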

Additional observations from a re-analysis of the deposited data

How the results depend on the processing

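Of 185 values of the co-receptor genes under alternative settings, 176 kept their sign and their side of the threshold, 7 passed it where they otherwise did not, and 2 changed sign. The 7 concern the gas1 genes. Those not named next were gas1a values from fits that left out a cyclopamine library and so kept a single treated library. gas1a in slow muscle against untreated crest passed with DESeq2 (log2 fold change 2.27), with only the groups compared (2.19) and with the replicate block (2.19), and ranged from 1.87 to 2.53 when a library was left out, and gas1b passed with DESeq2 (1.999). In slow muscle against cyclopamine crest gas1a ranged from 0.030 to 2.05 and cdon from -0.52 to 0.13 when a library was left out. lrp2a in slow muscle against untreated crest ranged from -0.47 without untreated replicate 2 to 10.27 without untreated replicate 1, this last value against a lone library at 0 counts, where the fitted value is no bound. The replicate block was added to the fit with only the groups compared, so gas1a passed in both on the same libraries. With the replicate number as a block no other co-receptor gene was called. Same-numbered slow muscle and untreated libraries did not deviate together (correlation 0.015 across 17701 genes). This value cannot show whether they came from the same pool of embryos.

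Numbers of called genes moved more. In slow muscle against untreated crest 451 genes were called, and 1408 without a filter on low counts, 2758 with DESeq2, 2368 with only the groups compared, 2053 with the replicate block, and 108 to 3013 when a library was left out. In cyclopamine against untreated crest 0 were called, and 21 without a filter, 306 with DESeq2, and 0 to 1366 when a library was left out, the 1366 without cyclopamine replicate 3 and 17 without replicate 4. In slow muscle against cyclopamine crest 385 were called, and 1277 without a filter, 2736 with DESeq2, 0 with only the groups compared, and 204 to 3581 when a library was left out. Where a group keeps a single library, that library is assumed to vary like the others. Upper quartile scaling moved the median of all genes in slow muscle against untreated crest to -0.16, against 0.08 with TMM, and the share of calls that were higher to 52.4%, against 65.6%. Under it cdon stood at 0.36 and boc at 0.54 in that comparison, and the sign of each co-receptor value was kept. The causes were not tested. The lrp2a levels in slow muscle and untreated crest rest on a library with 0 counts and on libraries with 130 to 197 counts, so small differences there were not detectable.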
